A study of Populus deltoides with 12 samples.

Results

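The chalcone synthase (CHS) genes *PdeCHS1* to *PdeCHS6* of *Populus deltoides* are described here across leaves of different color. The 6 genes were taken by identifier from the study's list of CHS genes, out of 46170 genes in the deposited tables. The study listed them as differentially expressed in these same leaves, so their being changed in either color comparison is not independent evidence. RNA-seq was performed on mRNA from fully expanded leaves, with 12 libraries in 4 groups of 3 biological replicates. F_P and F_G are the purple and green leaves of 'Zhongshanyuan' (ZSY), P is the purple leaf of 'Quanhong' (QHP), and G is the green leaf of 'L2025'. All plants are labelled as wild type and were field-grown seedlings. F_P and F_G share a cultivar, whereas P and G do not, and in P vs. G the color of the leaf and the cultivar cannot be told apart. How many plants stand behind a replicate is not given in the sources used here.

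Chalcone synthase catalyzes the first committed step of flavonoid biosynthesis. It joins p-coumaroyl-CoA with malonyl-CoA units into naringenin chalcone, which chalcone isomerase closes to a flavanone. Flavonols, proanthocyanidins, and anthocyanins, the purple pigments of many leaves, all draw on this product, and plant genomes often carry CHS as a small family with copies in tandem. In poplar, as in many plants, anthocyanin genes are controlled by R2R3-MYB factors together with bHLH and WD40 partners.

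Between 14543579 and 16628923 fragments per library fell on annotated genes, and the values are FPKM, fragments scaled to exon length and to a library size set by the authors. As a check of the leaf tissue, the 19 photosynthesis antenna protein genes that the study lists for P vs. G were looked up. They were above 0 in all 12 libraries. Their summed FPKM was 7247 to 7466 in F_P, against 9232 to 10751 in F_G, and 6013 to 6424 in P, against 20591 to 23496 in G. The study listed these genes among those changed in P vs. G, so their difference between P and G is not independent evidence. The part of this level in the results below was not tested. In leaf tissue, fewer cells of a type and less RNA per cell cannot be told apart.

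The members lie in 3 places. On chromosome 14, *PdeCHS1* (Podel.14G152900.v2.1, 11135855 to 11137937, minus strand) and *PdeCHS2* (Podel.14G153100.v2.1, 11144097 to 11146089, minus strand) are 6159 bases apart with 1 annotated gene between them. *PdeCHS6* (Podel.14G155700.v2.1, 11363773 to 11365749, plus strand) follows 217683 bases further on, beyond 25 other genes. On chromosome 1, *PdeCHS4* (Podel.01G055700.v2.1, 4193746 to 4195678) and *PdeCHS3* (Podel.01G055900.v2.1, 4205889 to 4207220), both on the minus strand, are separated by 10210 bases and 1 gene. *PdeCHS5* (Podel.03G190000.v2.1, 19100664 to 19102871, plus strand) is on chromosome 3. The positions are those of the deposited annotation, which does not name its genome build.

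All 6 models have 2 exons, 1 transcript, and a coding sequence split after the first base of a codon, since the first coding stretch leaves 1 base over when divided by 3. *PdeCHS1* and *PdeCHS2* have identical exon lengths, 271 and 1339 bases, and each codes for 396 residues, while their introns are 473 and 383 bases long. *PdeCHS3* and *PdeCHS4* both code for 390 residues in coding stretches of 178 and 995 bases, and *PdeCHS5* codes for 391. *PdeCHS6* shares the 1010 coding bases of the second exon with *PdeCHS1* and *PdeCHS2* in length, but only 34 bases of its first exon of 272 bases are annotated as coding, against 181 bases in those genes. Its model is therefore shorter, with 347 residues, and whether the first exon is annotated in full was not tested. No untranslated bases are annotated for *PdeCHS3*, whose FPKM rests on 1173 bases of exon, against 1435 to 1610 bases in the other 5 genes.

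**Figure D1:**
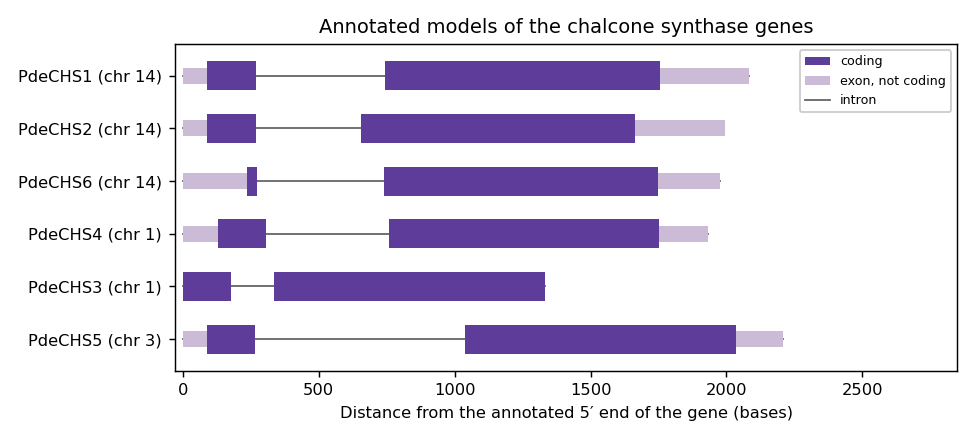
Annotated models of the 6 genes, drawn to scale from the 5′ end of each gene (x axis, bases), with coding parts dark, other exon parts pale, and introns as lines. All have 2 exons, *PdeCHS1* and *PdeCHS2* have equal exon lengths and differ in intron length (473 and 383 bases), and *PdeCHS6* has a first coding part of 34 bases.

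The study's qRT-PCR primers are designed sequences for 3 of the members, and they are shown because they let *PdeCHS1* and *PdeCHS2* be set against each other letter by letter. They are given 5′ to 3′, and capitals mark the longest run that primers of different members share on either strand.
*PdeCHS1* forward: cgtcgattgaggagatcagaaa
*PdeCHS1* reverse: tccggAAGTAGTAGTCAGGatag
*PdeCHS2* forward: cCCTGACTACTACTTtcgcatc
*PdeCHS2* reverse: tcctcagtcaagtgcatgtatc
*PdeCHS3* forward: tgctgtgatcatggctatcg
*PdeCHS3* reverse: cgcacattcgcttgaacttt
Read on the other strand, the *PdeCHS1* reverse primer is ctatCCTGACTACTACTTccgga, and its 14 capital bases recur in the *PdeCHS2* forward primer. Among the 24 comparisons of primers from different members, the next longest shared run was 6 bases. The primers of the neighboring copies thus overlap in this stretch and are alike only in part outside it. How reads that match more than 1 copy were assigned is not given in the sources used here, so the division of fragments between *PdeCHS1*, *PdeCHS2*, and *PdeCHS6* is uncertain, and it was not tested.

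*PdeCHS2* carried most of the summed FPKM of the 6 CHS genes, which are those the study listed as changed, without its *PdeCHS7*. It had 1064, 1059, and 1036 FPKM in F_P, against 167, 183, and 181 FPKM in F_G. In P it had 705, 810, and 829 FPKM, against 142, 139, and 127 FPKM in G. All purple libraries lay above all green libraries, and the F_P libraries lay above those of P. Groups that do not overlap were common, since over all genes tested F_P and F_G did not overlap for 63.4% (F_P higher for 33.2%, lower for 30.2%) and P and G for 69.5% (P higher for 33.4%, lower for 36.1%). By FPKM it ranked between 28 and 30 among all genes in F_P and between 30 and 41 in P, against 479 to 549 in F_G and 839 to 912 in G. The coefficient of variation between its replicates was 1.37% in F_P, 4.78% in F_G, 8.55% in P, and 5.72% in G.

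*PdeCHS1*, the nearest copy of *PdeCHS2*, was expressed at a far lower level. It had 67.8, 112, and 80.15 FPKM in F_P, against 29.5, 22.7, and 24.6 FPKM in F_G, and 51.4, 78.4, and 73.6 FPKM in P, against 17.3, 21.2, and 15.05 FPKM in G. The purple and green libraries did not overlap, whereas those of F_P and P did. Its replicates were wider apart than those of *PdeCHS2*, with a coefficient of variation of 26.3% in F_P, where counting error alone gives 2.102%. The 1744, 2894, and 2149 fragments behind the F_P values have exact 95% Poisson intervals that do not overlap, the highest being 2790 to 3001 in replicate 2. Those intervals cover counting error only. Of the summed FPKM of *PdeCHS1* and *PdeCHS2*, *PdeCHS1* held 5.99% to 9.56% in F_P, against 11.01% to 14.97% in F_G, and 6.79% to 8.83% in P, against 10.6% to 13.3% in G.

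*PdeCHS6*, the third copy on chromosome 14, had 25.3, 27.9, and 24.1 FPKM in F_P, against 8.34, 6.03, and 8.50 FPKM in F_G. It had 20.9, 20.2, and 22.2 FPKM in P, against 11.8, 9.72, and 7.28 FPKM in G. As for the other copies on this chromosome, every purple library was higher than every green one.

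On chromosome 1, *PdeCHS3* was higher in every purple than in every green library of its comparison, whereas *PdeCHS4* was so only in P vs. G. *PdeCHS3* had 51.0, 51.9, and 44.5 FPKM in F_P, against 29.0, 26.9, and 27.6 FPKM in F_G, and 70.8, 62.2, and 73.9 FPKM in P, against 35.1, 28.6, and 25.4 FPKM in G. *PdeCHS4* had 37.98, 44.1, and 41.4 FPKM in P, against 18.3, 14.3, and 14.98 FPKM in G. In ZSY, however, its 19.5, 21.8, and 20.7 FPKM in F_P overlapped the 20.5, 22.5, and 19.7 FPKM in F_G. *PdeCHS4* is thus the only member measured above 1 FPKM in every library whose purple and green libraries overlapped in 1 of the 2 color comparisons.

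*PdeCHS5* was near the limit of detection outside G. In P it had 0.12, 0.50, and 0.08 FPKM, against 3.19, 3.26, and 3.15 FPKM in G. F_P held 1 fragment in 1 of 3 libraries (0.04 FPKM) and none in the other libraries, against 0.64, 0.46, and 0.23 FPKM in F_G. These values rest on 18 fragments in P and 202 in G, and on 1 fragment in F_P and 30 in F_G. The green libraries were higher than the purple ones in both comparisons, opposite to the other members that changed.

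**Figure D2:**
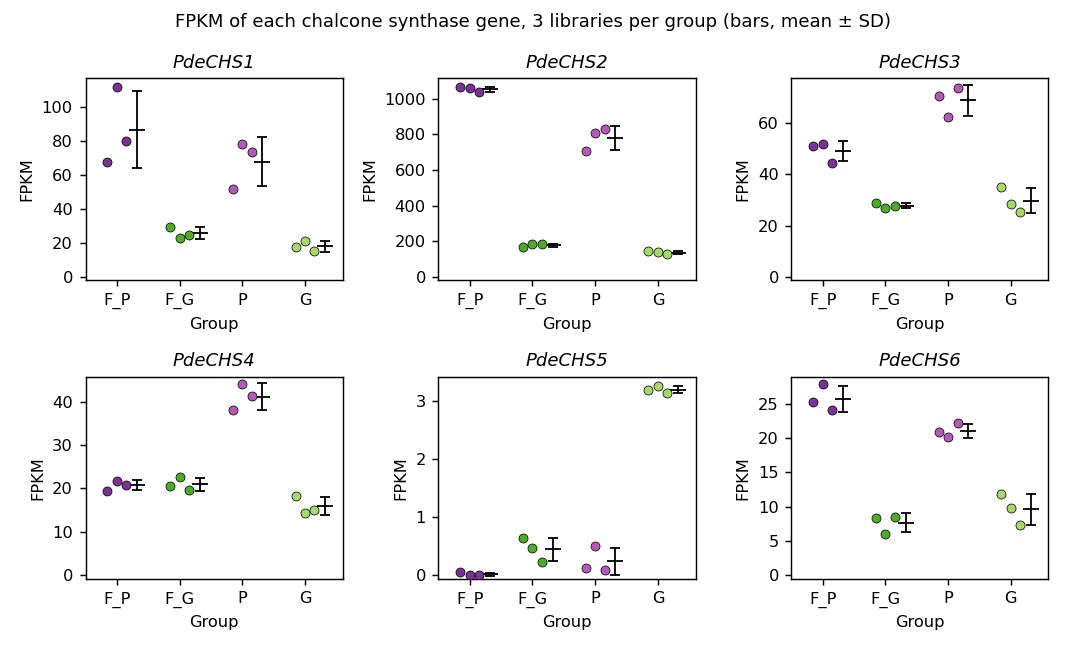
FPKM (y axis, a linear scale of its own for each gene) of the 6 genes in the 4 groups, with 1 point per library and the mean ± SD of 3 libraries beside them. *PdeCHS1*, *PdeCHS2*, *PdeCHS3*, and *PdeCHS6* were higher in every purple than in every green library, *PdeCHS4* was higher in P (37.98 to 44.1 FPKM) only, and *PdeCHS5* stood out in G (3.15 to 3.26 FPKM).

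The summed FPKM of the 6 genes was 1235 ± 33.9 in F_P and 260 ± 3.54 in F_G, and 981 ± 82.7 in P and 212 ± 17.6 in G (SD, n = 3 each). The purple to green ratio of these sums was 4.76 in ZSY and 4.63 between QHP and L2025. *PdeCHS2* alone made up 89.8% of the difference between F_P and F_G and 84.0% of that between P and G. Without it, the other 5 genes summed to 182 ± 27.3 FPKM in F_P and 82.4 ± 4.96 FPKM in F_G, a ratio of 2.21. They summed to 199 ± 15.9 FPKM in P and 76.3 ± 9.98 FPKM in G, a ratio of 2.61. A sum over the members is a description and was given no test.

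The share of *PdeCHS2* in the summed FPKM was 85.3 ± 1.82% in F_P and 68.2 ± 2.36% in F_G, and 79.7 ± 0.11% in P and 64.1 ± 1.78% in G (SD, n = 3 each). The purple and green libraries did not overlap in this share, nor did those of F_P and P, whereas F_G (65.6% to 70.0%) and G (62.3% to 65.8%) overlapped. The mean shares of the other members were lower in the purple leaves, but the libraries of *PdeCHS1* overlapped in both color comparisons. *PdeCHS4* held 1.67 ± 0.08% in F_P and 8.05 ± 0.54% in F_G, *PdeCHS3* held 3.98 ± 0.25% in F_P and 10.7 ± 0.56% in F_G, and *PdeCHS1* held 6.99 ± 1.67% in F_P and 9.87 ± 1.49% in F_G. In QHP and L2025, *PdeCHS3* held 7.07 ± 0.93% in P and 13.96 ± 1.29% in G, and *PdeCHS1* held 6.86 ± 0.98% in P and 8.41 ± 1.22% in G. *PdeCHS6* held between 1.99% and 5.20% in any library, and *PdeCHS5* at most 1.63%, in G.

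**Figure D3:**
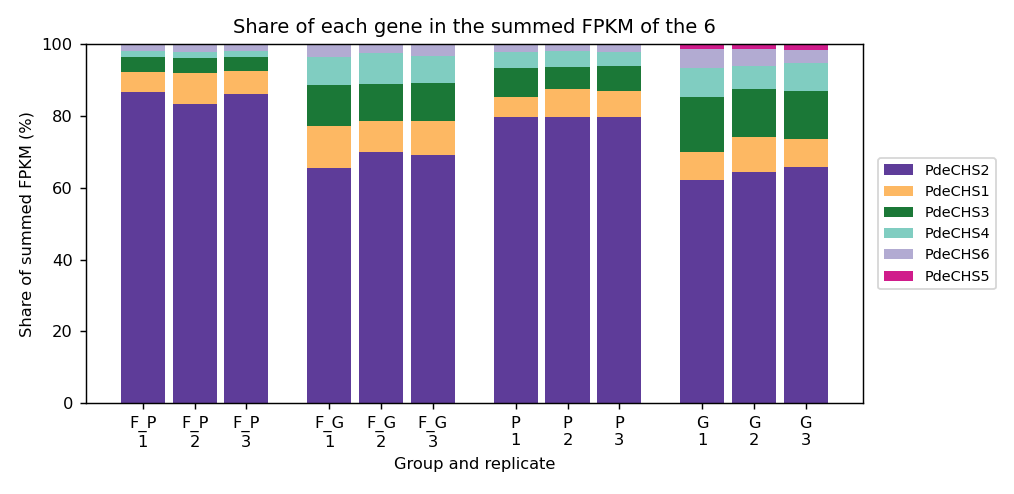
Share of each gene in the summed FPKM of the 6 (y axis, percent) for the 3 libraries of each group. *PdeCHS2* held 83.2% to 86.7% in F_P and 79.6% to 79.8% in P, against 65.6% to 70.0% in F_G and 62.3% to 65.8% in G.

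The order of the members also differed between the groups. *PdeCHS2* came first and *PdeCHS5* last in all 4, and *PdeCHS2* exceeded the next member 12.2-fold in F_P and 6.37-fold in F_G, and 11.3-fold in P and 4.57-fold in G. The second place was held by *PdeCHS1* in F_P and by *PdeCHS3* in the other groups, by FPKM on the annotated exon lengths. The shorter *PdeCHS3* model, without untranslated bases, bears on this order, since *PdeCHS1* had more fragments than *PdeCHS3* in P (5773 against 4269) and in F_G (1939 against 1540). The libraries of *PdeCHS3* and *PdeCHS1* overlapped in P and in F_G, so that their order there is not beyond the spread, and those of *PdeCHS1* and *PdeCHS4* overlapped in G. *PdeCHS6* was above *PdeCHS4* in F_P only, with 25.8 ± 1.92 against 20.7 ± 1.16 FPKM, and below it in the other groups.

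The comparison of F_P with F_G addresses leaf color within 1 cultivar. Genes were called in limma fits of log2(FPKM + 1) where the p adjusted by Benjamini-Hochberg did not exceed 0.05 and the log2 fold change reached 1 in either direction. Of all 25713 genes tested, 18.2% were called in F_P vs. F_G, 5.68% as higher and 12.5% as lower. Of the members, 3 of the 5 tested were upregulated and none was downregulated, on a list that the study chose on these libraries. The median log2 fold change of the 5 was 1.64, beside 0.04 over all genes tested. The called genes were the 3 copies on chromosome 14. *PdeCHS2* rose 5.94-fold in mean FPKM, with a log2 fold change of 2.57 ± 0.05 (SE, adjusted p = 6.1e-08 from limma). *PdeCHS1* rose 3.39-fold (log2 fold change 1.70 ± 0.18, SE) and *PdeCHS6* 3.38-fold (1.64 ± 0.13, SE). In the study's qRT-PCR, *PdeCHS2* rose less than *PdeCHS1* in both color comparisons, the reverse of the order by FPKM. What lies behind this gap was not tested. *PdeCHS3* had a ratio of 1.77 and a log2 fold change of 0.80 ± 0.08 (SE) with an adjusted p of 7.2e-05 from limma, below the minimum fold change. The log2 fold change of *PdeCHS4* was −0.02 with a 95% interval of −0.20 to 0.17, which does not reach the minimum of 1 in either direction. *PdeCHS5* was below the minimum of 1 FPKM in 3 libraries and was not tested. Its fragments gave a ratio of 0.032 between F_P and F_G, with an exact 95% interval of 0.00079 to 0.195 for counting error.

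In P vs. G, all 6 members were called, 5 as upregulated and 1 as downregulated, again on a list chosen by the study on these libraries. Over all 26577 genes tested, 26.1% were called, 9.85% as higher and 16.2% as lower. *PdeCHS5* entered this test only through its level in G, so that it had to differ, and leaving out any G library took it out of the test. *PdeCHS2* rose 5.76-fold in mean FPKM (log2 fold change 2.51 ± 0.08, SE) and *PdeCHS1* 3.798-fold (1.86 ± 0.18, SE). *PdeCHS4* rose 2.59-fold (1.33 ± 0.11, SE), *PdeCHS3* 2.32-fold (1.196 ± 0.12, SE), and *PdeCHS6* 2.19-fold (1.08 ± 0.15, SE). The call of *PdeCHS6* rested on G replicate 3, without which its log2 fold change was 0.91. *PdeCHS5* fell by 1.78 on the log2(FPKM + 1) scale, which understates changes at low values, and its fragments gave a ratio of 0.074 between P and G (exact 95% interval 0.043 to 0.12). The largest adjusted p among the 6 genes was 5.6e-04, for *PdeCHS6*, from limma.

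**Figure D4:**
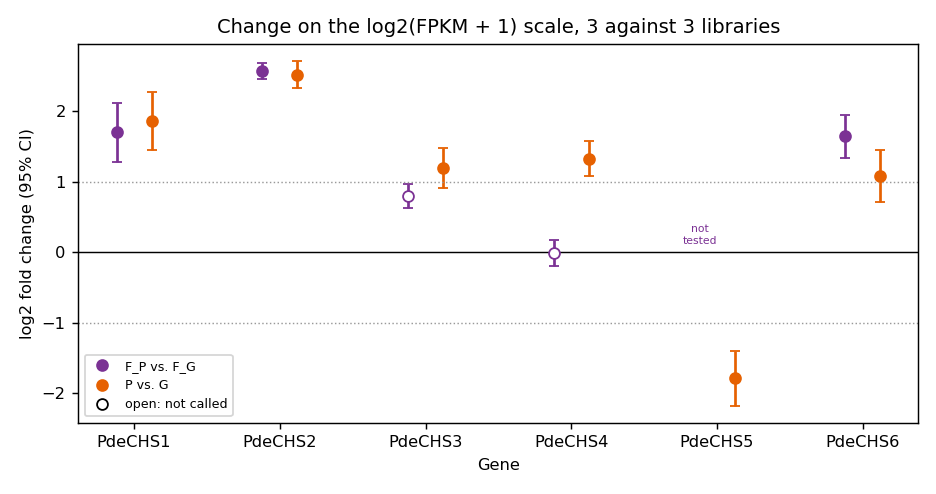
Log2 fold change on the log2(FPKM + 1) scale (y axis) with the 95% interval from limma, for F_P vs. F_G and P vs. G, 3 against 3 libraries each. Filled points were called, open points were not, dotted lines mark a change of 1, and of the 5 genes tested in both *PdeCHS4* shows the widest gap, −0.02 and 1.33.

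Whether the 2 color comparisons differ was tested directly, as the log2 fold change of P vs. G minus that of F_P vs. F_G in all 12 libraries. At the same limit of adjusted p, with no minimum size, this difference was called for 45.4% of 28339 genes (21.4% higher, 23.9% lower) and for 2 of the 6 members. *PdeCHS4* had a difference of 1.34 ± 0.14 (SE, adjusted p = 8.4e-06 from limma), and it was called under every alternative tried. *PdeCHS5* reached the filter through the 3 G libraries only and was not tested in F_P vs. F_G, so its entry here was decided by the group where it is high. Its difference was −1.29 ± 0.23 (SE, adjusted p = 6.3e-04 from limma), but it was −1.33 with an adjusted p of 0.13 when 0.1 instead of 1 was added to the FPKM, and 0.0067 when the fragments were fitted with limma's voom. Its ratios of 0.032 and 0.074 have overlapping intervals, so that the difference of *PdeCHS5* depends on the scale. The differences of *PdeCHS3* (0.40 ± 0.15, SE, adjusted p = 0.051) and *PdeCHS6* (−0.57 ± 0.22, SE, adjusted p = 0.052) from limma narrowly missed the threshold. That of *PdeCHS3* was called at 0.65 after scaling by total fragments and at 0.65 with voom, and also without G replicate 1 or P replicate 2. That of *PdeCHS6* was called at −0.63 without F_G replicate 1, at −0.64 without F_G replicate 3, and at −0.73 without G replicate 3. For *PdeCHS2* the difference was −0.05 with a 95% interval of −0.26 to 0.16, and for *PdeCHS1* it was 0.16 with an interval of −0.46 to 0.77.

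Leaves of the same color were also compared between cultivars, F_P with P and F_G with G. These comparisons share their libraries with the color comparisons. In F_P vs. P, 10.6% of 24752 genes were called by limma (5.05% as higher, 5.53% as lower) and 0 of 5 members tested, while 4 had an unadjusted p under 0.05, as had 58.5% of all genes, and voom called 1, beside 15.7% of all genes. That gene is *PdeCHS4*, at 20.7 ± 1.16 FPKM in F_P and 41.1 ± 3.06 FPKM in P (SD, n = 3 each), with a log2 fold change of −0.96 and a 95% interval of −1.12 to −0.79. It was called, at −1.01, without P replicate 1. *PdeCHS2* was 1.35-fold higher in F_P (log2 fold change 0.43 ± 0.06, SE) and *PdeCHS3* had a ratio of 0.712 (−0.48 ± 0.08, SE). Between these groups 61.7% of genes did not overlap, 31.3% with F_P higher and 30.5% with F_P lower. In F_G vs. G, 19.9% of 26789 genes were called (9.35% as higher, 10.5% as lower) and 1 of 6 members, *PdeCHS5*, at −1.55 ± 0.18 (SE). It passed the filter through the 3 G libraries only, so leaving out any of these took it out of the test and left 0 members called. *PdeCHS1*, *PdeCHS2*, and *PdeCHS4* were higher in every F_G than in every G library, by log2 fold changes of 0.50, 0.38, and 0.38, below the minimum for a call. Over all genes, F_G and G did not overlap for 58.2%, with F_G higher for 26.7% and lower for 31.5%.

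The genes beside and between the members were examined for changes along the chromosome, from 5 genes before to 5 genes after each of the 3 stretches. Of these 57 genes, 43 were tested in F_P vs. F_G, where 1 was upregulated and 5 were downregulated. In P vs. G, 4 of 45 tested were upregulated and 7 were downregulated. These counts correspond to 6 of 43 and 11 of 45 genes called, beside 18.2% and 26.1% over all genes. Their median log2 fold changes were 0.04 and −0.05. The genes downregulated in P vs. G include Podel.03G190100 and Podel.03G190300, which had no fragment in P. They passed the filter only through G, so that they had to be lower.

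Podel.14G152800, the gene on the other side of *PdeCHS1* from *PdeCHS2*, was the only neighbor upregulated in both comparisons. It had 25.6, 28.3, and 26.6 FPKM in F_P, against 10.2, 10.4, and 9.63 FPKM in F_G, and 38.0, 40.4, and 37.6 FPKM in P, against 14.4, 14.6, and 13.5 FPKM in G. Its log2 fold changes were 1.33 and 1.39, and the files give it no function. Podel.14G153000 lies between *PdeCHS1* and *PdeCHS2*, on the opposite strand, with its start 524 bases from that of *PdeCHS1*. It had 4.90 ± 0.60 FPKM in F_P and 3.88 ± 0.94 FPKM in F_G, and 9.18 ± 1.96 FPKM in P and 2.85 ± 1.29 FPKM in G (SD, n = 3 each). It was called in P vs. G only (1.44), and its change differed between the comparisons by 1.15 (adjusted p = 0.016 from limma). Of the 22 genes tested between *PdeCHS1* and *PdeCHS6*, 4 were downregulated and none was upregulated in F_P vs. F_G, and 5 were downregulated and 1 was upregulated in P vs. G. Only Podel.14G154100 and Podel.14G154700 were downregulated in both. The others were so in 1 comparison only, some with the opposite sign in the other. Podel.14G154100 was at 1.15 ± 0.34 FPKM in F_P and 11.3 ± 1.04 FPKM in F_G, and at 1.98 ± 0.19 FPKM in P and 32.6 ± 6.05 FPKM in G. Podel.14G154700 was at 82.3 ± 2.93 FPKM in F_P and 198 ± 14.7 FPKM in F_G, and at 160 ± 10.1 FPKM in P and 569 ± 29.1 FPKM in G. The stretch also holds *PdeUFGT1*, named for a flavonoid glycosyltransferase, which was downregulated in P vs. G only (−1.08).

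**Figure D5:**
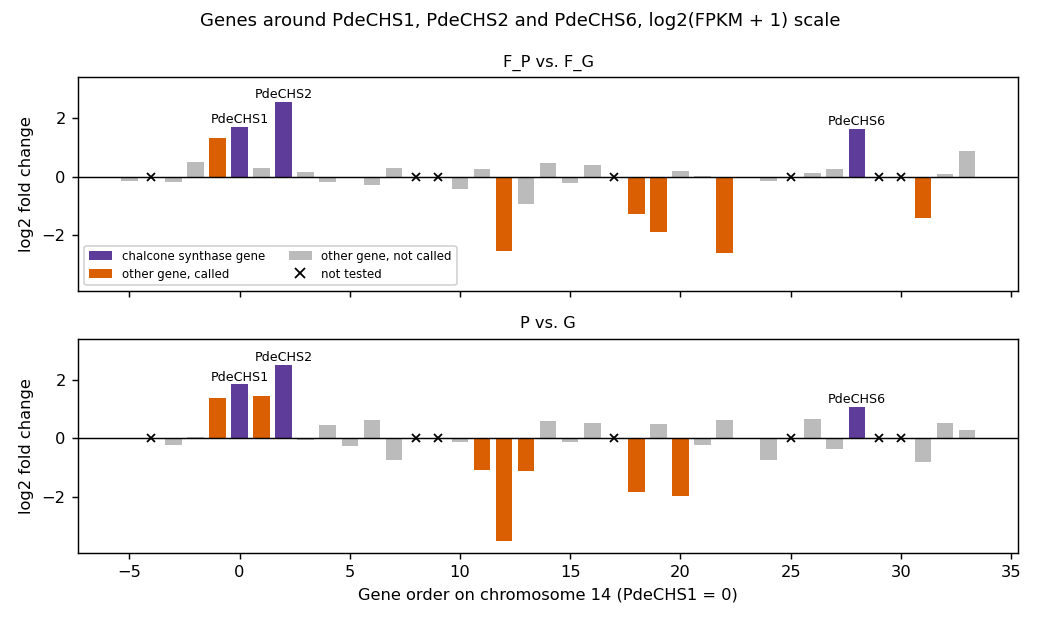
Log2 fold change (y axis, log2(FPKM + 1) scale) of the genes around *PdeCHS1*, *PdeCHS2*, and *PdeCHS6*, in their order on chromosome 14 (x axis, *PdeCHS1* at 0), for F_P vs. F_G (upper panel) and P vs. G (lower panel). Genes called are orange and crosses mark genes not tested, and of the neighbors only Podel.14G152800 was called as higher in both panels (1.33 and 1.39).

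On chromosome 1, Podel.01G055800 between *PdeCHS4* and *PdeCHS3* was low, with 0.67 ± 0.32 FPKM in F_P and 1.37 ± 0.17 FPKM in F_G, and 1.56 ± 0.53 FPKM in P and 2.67 ± 0.98 FPKM in G (SD, n = 3 each), and it was not called. Beside *PdeCHS5* on chromosome 3, Podel.03G190100 and Podel.03G190300, which the study's pathway table places in flavonoid biosynthesis, had fragments in G only. Podel.03G190100 was at 2.55, 4.08, and 2.81 FPKM in G and at 0 in the 9 other libraries. Against a floor of 3 fragments over the 3 P libraries, it was at least 66.1-fold lower in P than in G, and Podel.03G190300 at least 29.2-fold lower. Podel.03G190300 lies within the span of Podel.03G190100 on the same strand, so that their fragments are uncertain as to the gene. Like *PdeCHS5*, they were thus highest in green L2025 leaves, but without a fragment in F_G, where *PdeCHS5* had 30.

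The 31 other structural genes the study named for the pathway after CHS, which it also chose on these libraries, did not move as one. In F_P vs. F_G, 9 of 27 tested were upregulated and 10 were downregulated, beside 5.68% and 12.5% of all genes. The median log2 fold change was 0.46, beside 0.04 over all genes. Between P and G, 8 of 26 were upregulated and 12 were downregulated, beside 9.85% and 16.2% of all genes. The median there was −0.87, beside −0.02 over all genes and 1.26 for the 6 CHS genes. Some genes in the counts here and below were under 1 FPKM in every library of 1 group, so that they had to differ. Among those lower, these were *PdeANS6*, *PdeF3'5'H1*, and *PdeF3H4* in both comparisons, *PdeUFGT8* in F_P vs. F_G, and *PdeUFGT2* in P vs. G. Among those higher, it was *PdeFLS3* in both. *PdeF3'H1*, whose product adds a hydroxyl group to the B ring, was at 531 ± 16.5 FPKM in F_P and 136 ± 7.98 FPKM in F_G, and at 422 ± 34.4 FPKM in P and 147 ± 23.3 FPKM in G (SD, n = 3 each). *PdeANS3*, an anthocyanidin synthase, was at 46.4 ± 1.60 FPKM in F_P and 8.43 ± 2.23 FPKM in F_G, and at 58.3 ± 4.26 FPKM in P and 8.75 ± 1.08 FPKM in G. Both were upregulated in both comparisons, with log2 fold changes of 1.96 and 1.52 for *PdeF3'H1* and of 2.36 and 2.61 for *PdeANS3*. Other genes of the same families went the other way. *PdeF3'H2* was downregulated in both (−2.04 and −1.28). Of the 6 ANS genes, 1 was upregulated and 2 were downregulated in F_P vs. F_G, and 1 was upregulated and 3 were downregulated in P vs. G. Those downregulated in both comparisons include *PdeANS6* (−2.24 and −2.33), which entered only through its level in the green leaves and so had to differ.

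*PdeDFR*, the only dihydroflavonol reductase gene of the list, was below the minimum fold change in both, at 0.91 and 0.92. The glycosyltransferase gene *PdeUFGT5* was upregulated by 1.30 and 1.54, and *PdeUFGT9* by 1.66 in P vs. G, while it had 0.92 in F_P vs. F_G. Of 9 UFGT genes tested in each comparison, 4 were upregulated and 3 downregulated in F_P vs. F_G, while P vs. G had 3 upregulated and 5 downregulated. *PdeUFGT6* was among those downregulated in both, at −2.02 and −2.34. Of the flavonol synthase genes, which lead away from anthocyanins, *PdeFLS4* was upregulated in both, by 1.04 and 1.25, and *PdeFLS2* in F_P vs. F_G only (1.80). Both genes named for F3'5'H, which adds hydroxyl groups at 2 positions of the B ring, were downregulated in F_P vs. F_G, but *PdeF3'5'H2* was upregulated in P vs. G by 1.06. The 4 F3H genes, whose product turns flavanones into dihydroflavonols, included none that was upregulated among those tested. *PdeF3H2*, the most abundant of them, fell to 29.6 ± 3.41 FPKM in F_P, against 120 ± 1.73 FPKM in F_G. The study's qRT-PCR had *PdeF3H2* in the opposite direction, higher in the purple leaves of both color comparisons.

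The 2 MYB genes the study placed in subgroup 5, which in other plants regulates proanthocyanidin synthesis, moved in opposite directions. *PdeMYB1* (Podel.04G021100) had 37.6, 33.3, and 41.7 FPKM in F_P, against 11.4, 10.9, and 11.3 FPKM in F_G, and 17.3, 19.04, and 16.4 FPKM in P, against 5.92, 5.62, and 4.45 FPKM in G. *PdeMYB2* (Podel.06G234300) had 28.8 ± 2.24 FPKM in F_P and 113 ± 12.1 FPKM in F_G, and 22.4 ± 1.88 FPKM in P and 106 ± 7.87 FPKM in G (SD, n = 3 each). The log2 fold changes of *PdeMYB1* were 1.65 and 1.56 and those of *PdeMYB2* −1.94 and −2.19.

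The pattern of *PdeCHS2* over the 12 libraries was set against other genes by the root mean square difference of log2(FPKM + 1), each gene centered on its own mean. Among the list genes, *PdeANS3* was nearest (0.36), followed by *PdeF3'H1* (0.44) and *PdeMYB1* (0.56). They ranked 11, 23, and 71 among 12651 genes with a mean of at least 10 FPKM. Among the members, *PdeCHS1* was nearest (0.44, rank 22), followed by *PdeCHS6* (0.66, rank 155), *PdeCHS3* (0.86, rank 612), *PdeCHS4* (1.07, rank 2352), and *PdeCHS5* (1.98). The copies on chromosome 14 were thus the closest of the members. The division of fragments between these copies is uncertain, and its part in this was not tested. The 2 nearest of all were Podel.05G265600 (0.24) and Podel.08G033400 (0.26), for which the files give no function. To the summed FPKM of the 6, Podel.05G265600 (0.16), *PdeCHS2* itself (0.17), and Podel.04G057800 (0.18) were nearest, and of the list genes *PdeF3'H1* (0.29), *PdeANS3* (0.35), and *PdeUFGT5* (0.45). These measures describe 4 group levels more than 12 independent points, since the libraries of a group were close to each other.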

How the data were processed

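Leaf mRNA was sequenced as paired ends from 12 libraries, 3 in each of 4 groups, which were taken from the sample labels. HISAT2 and StringTie served for mapping and assembly, and the authors deposited FPKM per gene and library. For versions, strandedness, and the treatment of multiply mapped reads the answer is: not given in the sources used here. FPKM multiplied by annotated exon length gave whole fragments (within 0.02) for 100% of the values up to 1000 fragments, and the authors' library size was 0.942 to 1.09 times the fragments counted on annotated genes.

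Groups were compared with limma 3.58.1 (trend, R 4.3.3) on log2(FPKM + 1) in the 6 libraries concerned, keeping genes that reached 1 FPKM in 3 libraries or more, and in all 12 libraries for the difference of the color comparisons. P-values were adjusted over all genes tested (Benjamini-Hochberg). Since FPKM were deposited, count models were not used for the main results. The members and gene lists were chosen with earlier results of these data known. Alternatives for the cultivar comparisons of single genes and for the neighbors and other structural genes were added after seeing the data. Named are the members, listed pathway genes on which a result turns, neighbors within the stretches, and the nearest patterns. Podel.14G152800, outside the stretch, was chosen after its values were seen. Within the stretches, Podel.14G154100 and Podel.14G154700 were singled out by their values. On simulated data the fits of 2 groups recovered known changes of 2 to 3 on the log2 scale. Smaller changes, genes with few fragments, and the difference of the color comparisons were not simulated. Sums, shares, and intervals were computed with Python 3.11.15, pandas 2.3.3, and scipy 1.17.1. The study's *PdeCHS7* was not analysed here, and no genome of the annotation's build was used, so that sequence identity between the copies was not computed.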

Additional observations from a re-analysis of the deposited data

Results flagged for a closer look

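The change in P vs. G and that in F_P vs. F_G differed for 2 of the members by the test of the difference itself, in which cultivar and color cannot be told apart for P and G. The log2 fold change of P vs. G minus that of F_P vs. F_G was 1.34 for *PdeCHS4*, which rose in P vs. G and had a change of −0.02 in F_P vs. F_G. It was −1.29 for *PdeCHS5*, which entered the test only through its level in G and whose call was lost when 0.1 was added to the FPKM and with voom. Of the other genes named, the same difference was 2.77 for *PdeF3'5'H2*, 1.23 for *PdeF3H2*, 1.15 for Podel.14G153000, 0.76 for *PdeF3'H2*, and 0.74 for *PdeUFGT9*. It was −0.44 for *PdeF3'H1*, −0.56 for Podel.14G154700, −0.96 for Podel.14G154100, −1.34 for *PdeUFGT1*, and −1.65 for *PdeFLS2*. Podel.03G190100 (−2.03) and Podel.03G190300 (−2.82) were at 0 in all libraries but those of G, so that the difference equals their change in P vs. G and was fixed by their entry through G. Such a difference was called for 45.4% of all genes tested.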

How the results depend on the processing

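*PdeCHS1* and *PdeCHS2* kept their calls in both color comparisons under every alternative, and *PdeCHS6* in all but P vs. G without G replicate 3. The deposited FPKM already followed a median-of-ratios scaling. Scaling by total fragments moved the median log2 fold change of all genes to 0.15 in P vs. G, −0.11 in F_P vs. P, and 0.18 for the difference of the color comparisons. Relative to that median, *PdeCHS2* was at 2.55 in P vs. G, against 2.53 as deposited. With this scaling the ratio of summed FPKM was 4.55 in F_P vs. F_G, 5.28 in P vs. G, and 1.35 in F_G vs. G, 1 member was called in F_P vs. P, and the difference of *PdeCHS2* turned to 0.20 and *PdeCHS3* in F_G vs. G to 0.050. Fitting fragments with voom also called 1 member in F_P vs. P and gave 0.21 for the difference of *PdeCHS2*, 0.0067 for that of *PdeCHS5*, and 0.048 for *PdeCHS3* in F_G vs. G. With 0.1 added to the FPKM, 1 member differed between the color comparisons. Shares of *PdeCHS2* in fragments were 70.9% in F_G, 81.6% in P, and 67.4% in G. Without a minimum fold change, 4 members were called in each cultivar comparison, beside 52.9% of all genes in F_P vs. P and 49.0% in F_G vs. G, as were 22 neighbors in F_P vs. F_G and 27 neighbors in P vs. G, beside 55.6% and 64.5% of all genes. The causes were not tested.

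Without single libraries, the members called numbered 0 to 1 in F_P vs. P, 0 to 1 in F_G vs. G, 4 to 6 in P vs. G, and 1 to 3 for the difference, the 1 without G replicate 2. *PdeCHS4* ranged from −0.056 to 0.037 in F_P vs. F_G, *PdeCHS3* from −0.18 to 0.042 in F_G vs. G, and the differences of *PdeCHS1* from −0.00010 to 0.36 and of *PdeCHS2* from −0.10 to 0.021. Whether the replicate numbers pair the samples is not given in the sources used here. Deviations with the same number correlated at −0.25 to 0.11, which cannot decide it with 3 libraries per group. With a replicate block 3 members were called in F_P vs. F_G and 6 members in P vs. G, and it added *PdeCHS3* (0.40, adjusted p = 0.046 from limma) to the differences. *PdeCHS5* outside G rests on few fragments, and depth limits it.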
